A study of Mus musculus with 15 samples.

Results

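Metaplastic carcinosarcomas of Trim24COE mice were compared with mammary glands of control mice across all genes. The members were chosen by the labels: 3 libraries of tumors with the genotype TRIM24 overexpression and the subtype Carcinosarcoma (mice 64, 567 and 897), and 4 libraries of normal glands of Cre control mice (133, 392, 417_3 and 517_3), which are 7 of the 15 libraries of the series. All 7 belong to sequencing batch 1, and each is the first library of its mouse. The study asked which transcripts change when TRIM24 is produced in excess in mammary epithelium, and it also sequenced Trim24COE carcinomas and spontaneous tumors. Trim24COE mice carried a piggyBac transgene in which a floxed stop cassette precedes a FLAG-tagged mouse Trim24 cDNA, together with MMTV-Cre, which removes the stop cassette in mammary epithelium. Control mice carried MMTV-Cre alone, so both groups share the Cre transgene, and only cells that express MMTV-Cre turn on Trim24 in the first group. The strain is labelled FVB, the glands came from age-matched mice, and the tumor-bearing mice differed in age, with mouse 897 the oldest and mouse 567 the youngest. The pathologists of the study gave differing calls for tumor 567. Each library is bulk RNA of a whole tumor or gland of 1 mouse, and the p-values measure the spread between these mice.

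Trim24 encodes a chromatin reader of the TIF1 family that binds histone tails and acts as a coregulator of nuclear receptors. Metaplastic carcinosarcoma is a mammary tumor in which an epithelial component lies beside spindle-shaped or other mesenchymal cells. In the epithelial to mesenchymal transition (EMT), Snail, Twist and Zeb transcription factors repress genes of cell junctions, while Grhl, Ovol, Esrp and Elf factors maintain the epithelial state.

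The values are TPM (transcript abundances scaled to the same total in each library), from which neither the sequencing depth nor a counting interval can be had. Between 13553 and 16908 genes reached 1 TPM in a library, and the 10 most abundant genes held from 6.66% to 22.7% of the total. The glands did not form a uniform group. The summed level of 24 adipocyte genes was 47069 and 51389 TPM in glands 133 and 392 but 2479 and 2583 TPM in glands 417_3 and 517_3. In the other direction, the summed level of 13 epithelial keratins was 637 and 1224 TPM in glands 133 and 392 and 5179 and 5574 TPM in the other two. Glands 417_3 and 517_3 were so alike (Spearman correlation 0.978, with 2.73% of genes more than 2-fold apart) that they were closer than the first and repeat libraries of gland 133 (0.970 and 3.56%, across batches). Without counts it could not be tested whether they differ by more than sampling noise, and the results were therefore also computed with their mean as 1 replicate. The carcinosarcomas correlated with each other at 0.921 to 0.943.

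**Figure D1:**
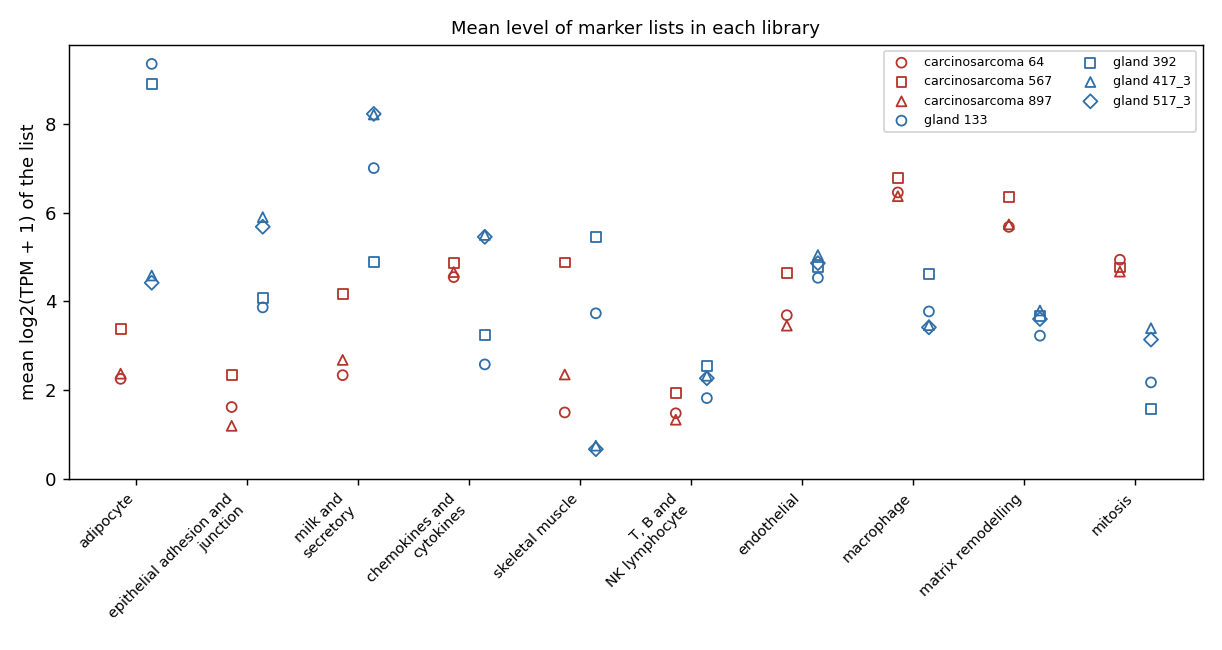
Mean log2(TPM + 1) of 10 marker lists in each library, with carcinosarcomas in red and control glands in blue. Adipocyte genes stand near 9 in glands 133 and 392 and below 5 in every other library, and macrophage, matrix remodelling and mitosis genes stand higher in all 3 carcinosarcomas than in all 4 glands.

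The targeted gene was examined first. Trim24 stood at 10.6, 12 and 14.5 TPM in carcinosarcomas 64, 567 and 897 and at 14.5, 18.4, 22.4 and 15.9 TPM in glands 133, 392, 417_3 and 517_3. After rounding, tumor 897 and gland 133 share 14.5 TPM, and no tumor lies clearly above a gland. The difference was -0.48 ± 0.26 (log2, SE) and did not pass the threshold (limma adjusted p = 0.214; exact permutation p = 0.114, two-sided). The RNA does not show a higher level in the libraries labelled TRIM24 overexpression. These gene totals do not separate transgene from endogenous transcripts, and epithelial markers were also lower in the tumors (given below for Epcam and Cdh1), whose part in this level was not tested. The study, in contrast, reported an excess. By qRT-PCR it found high Trim24 in a set of tumors that included 64, 567 and 897, relative to Cre-only glands. It described this result as predicted by its RNA-seq, in which carcinomas and carcinosarcomas together were tested against glands. It also reported excess TRIM24 and FLAG protein in Trim24COE tumor sections by antibody staining.

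Of 15287 genes tested with limma on log2(TPM + 1), 3511 (23.0%) passed an adjusted p of 0.05 and are called changed. Called higher in carcinosarcomas were 1503 genes (9.83%) and called lower were 2008 (13.1%), with a median log2 fold change of -0.12 over all genes tested. A change of at least 5-fold was called for 344 higher (2.25%) and 576 lower genes (3.77%). Without regard to the test, 15.4% of genes had all 3 carcinosarcomas above all 4 glands and 21.6% had all of them below. Counts given below for gene lists are to be read against these shares. A gene under 1 TPM in every gland was tested only if all 3 carcinosarcomas reached 1 TPM, which favours its separation. This holds for Foxf2, Hmga2, Mmp10, Wincr1, Ereg and Acan below, so their p-values alone do not support a rise. A gene under 1 TPM in every carcinosarcoma likewise needed at least 3 glands at 1 TPM. At an unadjusted p under 0.05 stood 37.6% of genes. When 1 mouse was left out in turn, 471 higher (3.08%) and 759 lower genes (4.97%) stayed called in each fit, and 434 (2.84%) and 723 (4.73%) of them were also called with the adipocyte list as a covariate. Against either pair of glands alone, 133 and 392 or 417_3 and 517_3, 960 higher (6.28%) and 909 lower genes (5.95%) were called as well. With quantile normalization the split turned to 1868 higher and 1459 lower genes, and the median of all genes moved to 0.04.

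**Figure D2:**
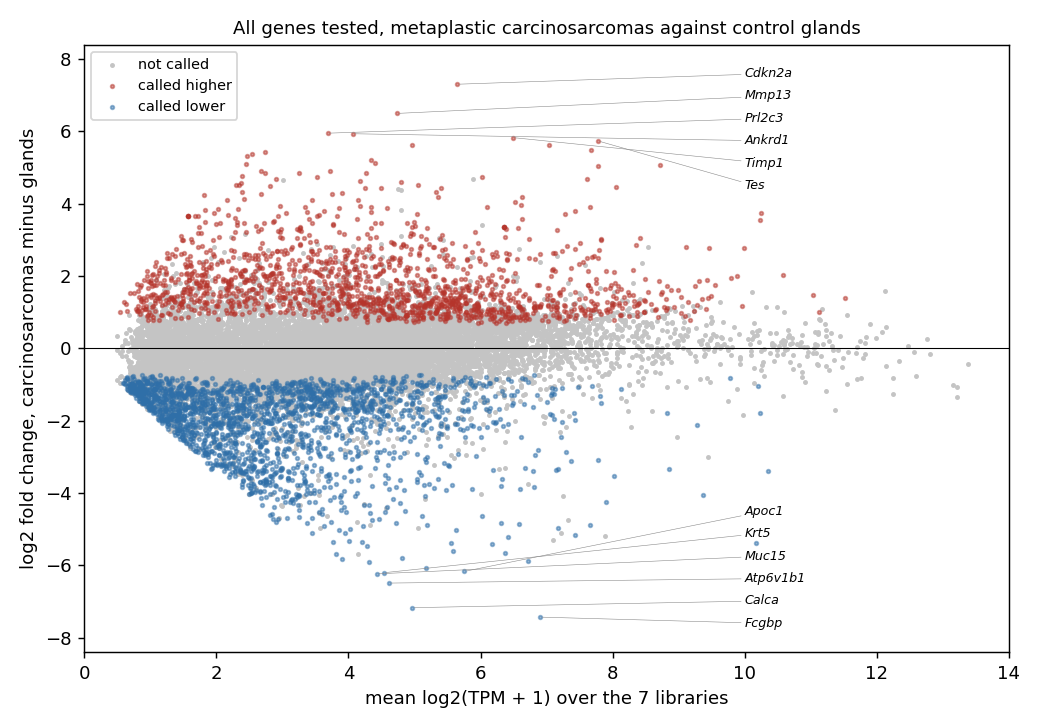
Log2 fold change of each of the 15287 genes tested, carcinosarcomas minus glands, against the mean log2(TPM + 1) over the 7 libraries. Red points are the 1503 genes called higher, blue points the 2008 called lower, and the 6 largest changes without overlap are named in each direction, from Cdkn2a at 7.31 to Fcgbp at -7.43.

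**Figure D3:**
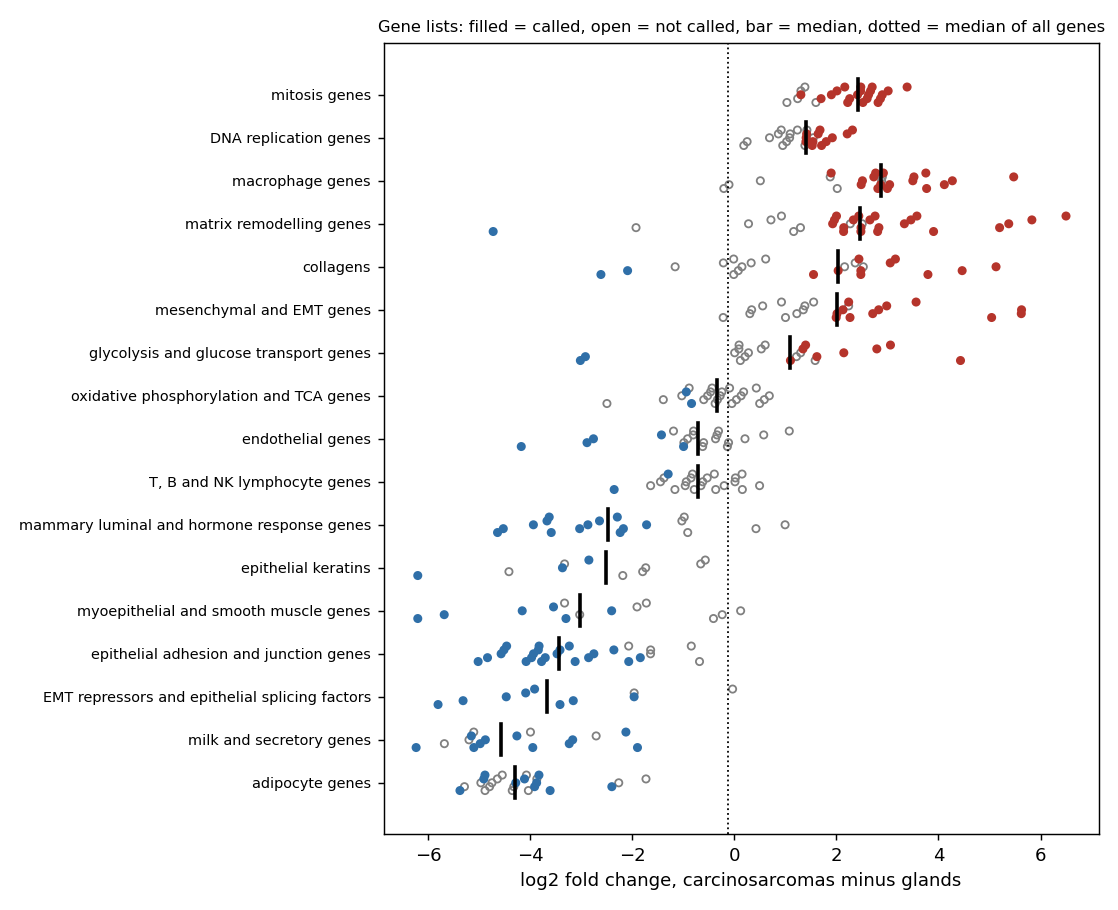
Log2 fold changes of the members of 17 gene lists, where filled points are called, open points are not, the bar is the median of the list and the dotted line the median of all genes tested. Mitosis, macrophage and matrix lists lie to the right of zero and junction, EMT repressor, milk and adipocyte lists to the left.

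Most genes of epithelial junctions fell. Of 26 tested, 21 were called lower and 0 higher, with a median of -3.44 against -0.12 for all genes tested. Tjp3, a scaffold protein of tight junctions, stood at 1.02, 1.28 and 0.68 TPM in carcinosarcomas 64, 567 and 897 and at 28.8, 24.1, 85.1 and 73.8 TPM in glands 133, 392, 417_3 and 517_3. No carcinosarcoma came near the lowest gland (-4.57 ± 0.48, SE, adjusted p = 0.00131). Crb3, a polarity protein of the apical membrane, stood at 0.41, 1.89 and 0.14 TPM against 15.1, 16.7, 29.2 and 30.6 TPM. Its fold change was -3.77 ± 0.43 (adjusted p = 0.00164), and tumor 567 held the highest of the tumor values. In bulk tissue, fewer epithelial cells and less RNA per epithelial cell cannot be told apart.

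The adhesion molecule Epcam stood at 10.3, 36.4 and 2.73 TPM in the carcinosarcomas and at 153, 183, 643 and 661 TPM in the glands (-4.83 ± 0.84, adjusted p = 0.00691). E-cadherin, Cdh1, the main adhesion receptor of epithelium, stood at 3.19, 18.9 and 1.29 TPM against 39.1, 36.9, 196 and 152 TPM (-3.84 ± 0.87, adjusted p = 0.0177). Again tumor 567 was highest among the tumors and still below every gland. The call of Cdh1 was lost without carcinosarcoma 64 (adjusted p = 0.0747) or 897 (0.0624). The junction receptor F11r, at 54.3, 88.8 and 30.7 TPM against 68.9, 71.2, 95.7 and 114 TPM, did not pass (adjusted p = 0.227), nor did Pkp1, Cdh3 and Cldn1. The count of 21 was 15 without carcinosarcoma 64, and 11 when glands 417_3 and 517_3 were left out.

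Most of the factors that hold the epithelial state fell too. Of 10 tested from a list of 12 EMT repressors and epithelial splicing factors, 8 were called lower and 0 higher, with a median of -3.66, and the count was 8 or 9 in every fit without 1 mouse. Elf5, a regulator of luminal and alveolar cells, stood at 0.8, 4.89 and 1.09 TPM against 127, 61.3, 304 and 248 TPM (-5.80 ± 0.63, adjusted p = 0.00143). Grhl1, a transcription factor of epithelial barriers, stood at 0.8, 1.97 and 0.25 TPM against 24.7, 14.7, 54 and 46.3 TPM (-4.09 ± 0.51, adjusted p = 0.00213). Esrp1 and Esrp2 direct epithelial splicing. Esrp1 stood at 0.43, 1.55 and 0.19 TPM against 19.3, 16.8, 77.2 and 58.9 TPM, and Esrp2 at 0.39, 0.96 and 0.79 TPM against 13.9, 8.62, 34.6 and 19.9 TPM. Both lay far below every gland in all 3 tumors. Klf5, a factor of proliferating epithelium, was not called (9.75, 8.03 and 9.46 TPM against 1.65, 1.54, 49.8 and 31.7 TPM), and the glands lay on both sides of the tumor values.

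The sequence CAGGTG, which reads as CACCTG on the other strand, is the E-box that Snail and Zeb factors are known to bind. Promoter windows of RefSeq on GRCm38.p6, from 250 bases before to 50 after a gene start, were searched for it on both strands. It was present in 20.2% of all 32851 windows, in 18.1% of the 13976 windows of genes tested, in 26.4% of windows of genes called lower and in 16.8% of those called higher. Of 20 windows of 15 junction genes that matched the table, 75% held it, against 57.1% of 7 windows of EMT repressors and 21.1% of 19 windows of mesenchymal genes. Only 15 of 26 junction genes, 5 of 12 EMT repressors and 15 of 25 mesenchymal genes had a window, and Cdh1 had none. Counted by gene, 73.3%, 60% and 26.7% of these held the motif, against 21.1% of the 10917 genes tested that had a window. These are matches of letters, not measured binding sites. Shown are 4 windows of junction genes that were called lower and hold at least 2 matches, 5′ to 3′ on the strand of the gene, with the matches in capitals. For a gene with several windows, the one with the most matches is shown.
Cldn4 (chr5:134946885-134947184, minus strand): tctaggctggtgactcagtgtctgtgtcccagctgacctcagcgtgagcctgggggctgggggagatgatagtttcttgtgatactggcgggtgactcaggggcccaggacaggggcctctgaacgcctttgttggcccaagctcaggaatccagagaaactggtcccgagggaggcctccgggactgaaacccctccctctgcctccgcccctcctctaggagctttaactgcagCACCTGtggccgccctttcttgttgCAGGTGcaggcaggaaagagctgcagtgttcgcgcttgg
Cldn7 (chr11:69965171-69965470, plus strand): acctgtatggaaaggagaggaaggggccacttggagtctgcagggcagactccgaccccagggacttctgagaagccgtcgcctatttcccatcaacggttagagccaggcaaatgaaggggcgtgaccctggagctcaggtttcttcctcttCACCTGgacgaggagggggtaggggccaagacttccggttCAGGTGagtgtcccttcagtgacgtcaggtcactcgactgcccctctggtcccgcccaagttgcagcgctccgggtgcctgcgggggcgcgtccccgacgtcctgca
Crb3 (chr17:57061951-57062250, plus strand): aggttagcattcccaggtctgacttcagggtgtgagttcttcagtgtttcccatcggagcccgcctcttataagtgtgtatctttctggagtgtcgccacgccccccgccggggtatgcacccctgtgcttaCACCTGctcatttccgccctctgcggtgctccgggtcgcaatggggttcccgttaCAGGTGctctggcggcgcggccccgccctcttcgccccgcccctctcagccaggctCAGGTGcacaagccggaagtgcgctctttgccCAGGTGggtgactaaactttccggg
Epcam (chr17:87635729-87636028, plus strand): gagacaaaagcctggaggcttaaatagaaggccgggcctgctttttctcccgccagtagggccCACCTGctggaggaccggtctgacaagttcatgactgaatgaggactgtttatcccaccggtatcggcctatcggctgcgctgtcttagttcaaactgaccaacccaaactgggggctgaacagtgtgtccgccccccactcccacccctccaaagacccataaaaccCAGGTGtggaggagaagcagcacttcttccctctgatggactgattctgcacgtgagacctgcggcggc
The claudins Cldn4 and Cldn7 are strand proteins of tight junctions. Cldn7 stood at 2.16, 9.97 and 0.73 TPM against 53.3, 50.1, 142 and 159 TPM (-4.51 ± 0.69, adjusted p = 0.00433). Cldn4 stood at 8.23, 16.5 and 1.25 TPM against 30.4, 81.9, 288 and 279 TPM (-4.08 ± 0.94, adjusted p = 0.0188), a call lost without carcinosarcoma 64 (adjusted p = 0.062) or 897 (0.0617).

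The keratins divided. Of 10 tested, 3 were called lower and 0 higher, with a median of -2.52. Krt5, the keratin of basal cells, stood at 0.44, 3.57 and 0.22 TPM in carcinosarcomas 64, 567 and 897 and at 40.8, 68.8, 409 and 392 TPM in the glands (-6.20 ± 0.90, adjusted p = 0.00359). Its basal partner Krt14 was not called, at 77.7, 7.92 and 12 TPM against 34.2, 50.7, 987 and 1064 TPM (adjusted p = 0.122). Tumor 64 thus stood above glands 133 and 392 for Krt14 while Krt5 was nearly absent there. The luminal keratin Krt8 stood at 130, 239 and 914 TPM against 158, 213, 1243 and 1291 TPM (-0.66 ± 0.95, adjusted p = 0.651). Its partner Krt18 stood at 110, 144 and 463 TPM against 253, 531, 1096 and 1197 TPM (-1.73 ± 0.67, adjusted p = 0.0961). Tumor 897 had the most Krt8 and Krt18 of the tumors and the least Epcam. The count of 3 was 6 without gland 133. The list gave 0 higher and 9 lower (median -3.65) without glands 133 and 392, 0 higher and 10 lower (median -4.36) with the adipocyte covariate, 0 higher and 7 lower (median -2.77) with array weights, which give less weight to libraries that vary more and 1 higher and 2 lower (median -1.03) without glands 417_3 and 517_3.

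Most luminal identity and hormone response genes fell. Of 18 tested, 13 were called lower and 0 higher, with a median of -2.47. The estrogen receptor gene Esr1 stood at 1.29, 1.54 and 1 TPM against 9.63, 9.68, 11.6 and 8.02 TPM (-2.23 ± 0.26, adjusted p = 0.0018), a tight separation in both groups. Prlr, the prolactin receptor, stood at 0.86, 1.9 and 0.4 TPM against 19.4, 50.3, 84.4 and 45.5 TPM (-4.52 ± 0.50, adjusted p = 0.00153). The luminal pioneer factor Foxa1 stood at 0.61, 1.65 and 0.2 TPM against 12.7, 20.5, 44.3 and 35.2 TPM (-3.93 ± 0.48, adjusted p = 0.00206). The progesterone receptor gene Pgr was called lower as well (0.17, 0.61 and 0.3 TPM against 3.18, 2.71, 12.3 and 5.61 TPM, adjusted p = 0.0136), a call lost without carcinosarcoma 64 (0.0638). Erbb2, a receptor tyrosine kinase, was not called (5.38, 9.42 and 6.53 TPM against 8.86, 12.4, 24.6 and 19.2 TPM, adjusted p = 0.091), and tumor 567 overlapped with gland 133.

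Of 16 milk and secretory genes tested, 11 were called lower and 0 higher, with a median of -4.57. Csn3, which encodes kappa-casein, stood at 10.8, 69 and 12.6 TPM against 695, 435, 1103 and 1183 TPM (-5.15 ± 0.65, adjusted p = 0.00221). Muc15, a membrane mucin of secretory epithelium, stood at 0.27, 2.12 and 0.55 TPM against 164, 32.5, 299 and 216 TPM (-6.23 ± 0.73, adjusted p = 0.0018). The beta-casein gene Csn2 was not called although its fold change was similar in size (-5.20 ± 1.80, adjusted p = 0.0715). Gland 392 held 30.3 TPM where glands 133, 417_3 and 517_3 held 2844, 4043 and 4112 TPM. Tumor 567, at 165 TPM of Csn2, lay above gland 392.

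Myoepithelial and smooth muscle genes gave 6 lower and 0 higher calls among 13 tested (median -3.03). Oxtr, the oxytocin receptor that triggers myoepithelial contraction, was uniform in the glands at 22.7, 26.1, 25.1 and 25.9 TPM and stood at 0.1, 1.64 and 0.06 TPM in the tumors (-4.15 ± 0.37, adjusted p = 0.000828). Trp63, the master factor of basal cells, stood at 0.74, 0.83 and 1.19 TPM against 6.49, 7.6, 13.7 and 9.99 TPM (-2.40 ± 0.31, adjusted p = 0.0024). The contractile genes Acta2 and Tagln were not called, and tumor 567 was the highest tumor for both, at 499 and 550 TPM. The list gave 0 higher and 10 lower (median -4.01) without glands 133 and 392 and 0 higher and 11 lower (median -4.87) with the adipocyte covariate.

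The mesenchymal genes divided: of 23 tested, 12 were called higher, 0 lower and 11 did not pass, with a median of 2.01. Fn1, fibronectin, stood at 1416, 1165 and 1109 TPM in the carcinosarcomas and at 17.1, 26.3, 26.1 and 27 TPM in the glands, means of 1230 ± 164 (SD, n = 3) and 24.1 ± 4.73 (SD, n = 4). It had the smallest adjusted p of the members (5.63 ± 0.25, SE, adjusted p = 0.000163) and lies on chr1:71585520-71653200 of GRCm38, minus strand. Vim, the intermediate filament of mesenchymal cells, stood at 1583, 2136 and 2722 TPM against 535, 765, 412 and 428 TPM (2.01 ± 0.32, adjusted p = 0.00521). Tnc, the matrix protein tenascin C, stood at 528, 508 and 88.6 TPM against 2.87, 1.82, 10.6 and 8.39 TPM (5.62 ± 0.74, adjusted p = 0.0025), with tumor 897 well below the other tumors. Foxf2, a mesenchymal forkhead factor, stood at 11.4, 7.16 and 6.72 TPM and under 0.3 TPM in each gland. It reached the filter only through the 3 tumors, so its limma adjusted p of 0.000828 does not by itself support a rise. The count of 12 was 6 without carcinosarcoma 64 or 567.

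The EMT transcription factors did not move together. Snai1 stood at 62.8, 63.2 and 53.4 TPM in the carcinosarcomas and at 4.53, 4.87, 12.1 and 11.4 TPM in the glands (2.83 ± 0.38, adjusted p = 0.00261), and it stayed called in each of the 7 fits without 1 mouse. Twist1 stood at 39.5, 51.4 and 99.1 TPM against 22, 30, 5.43 and 4.55 TPM (2.24 ± 0.67, adjusted p = 0.045). Its call was lost in 5 of those 7 fits, with adjusted p of 0.0914 without 64, 0.103 without 567, 0.143 without 897, 0.0888 without 417_3 and 0.0859 without 517_3. Zeb1 (12.1, 16.9 and 15.4 TPM against 9.73, 8.01, 8.02 and 4.32 TPM) lay above every gland without passing (0.93 ± 0.32, adjusted p = 0.0699). Zeb2 (adjusted p = 0.605), Snai2 (0.702) and the mesenchymal cadherin Cdh2 (0.766) overlapped between the groups. Cdh2 was high in tumor 567 alone, at 14.9 TPM against 1.31 and 0.57 TPM in the other tumors and 1.74 to 2.35 TPM in the glands.

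**Figure D4:**
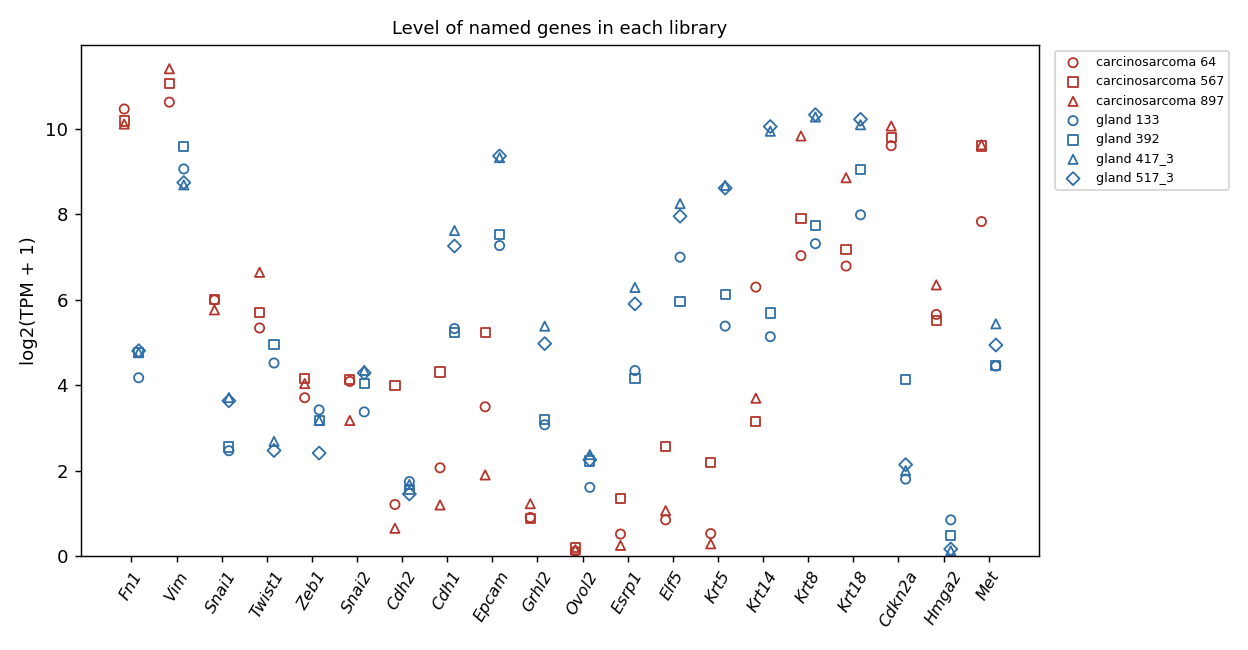
Log2(TPM + 1) of 20 named genes in each library, carcinosarcomas in red and glands in blue. Fn1, Vim, Snai1, Cdkn2a, Hmga2 and Met separate upward, Cdh1, Epcam, Grhl2, Ovol2, Esrp1, Elf5 and Krt5 separate downward, and Snai2, Cdh2, Krt14, Krt8 and Krt18 overlap.

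Several matrix genes changed. Among collagens, 10 of 23 tested were called higher and 2 lower (median 2.04). Col12a1, a collagen that sits on fibril surfaces, stood at 97.8, 353 and 118 TPM against 2.82, 1.91, 5.27 and 5.41 TPM (5.13 ± 0.50, adjusted p = 0.00115). Col1a1 and Col1a2 form the fibrils of type I collagen. Col1a1 stood at 601, 2043 and 376 TPM against 64.1, 81, 43.8 and 39.5 TPM, and Col1a2 at 4185, 1967 and 457 TPM against 70.2, 87.2, 67.7 and 56.3 TPM. Both were called (adjusted p = 0.00374 and 0.0037), and tumor 897 was lowest for each. Col4a1, the main basement membrane chain, was not called, at 124, 189 and 69 TPM against 120, 86.5, 160 and 117 TPM (-0.01 ± 0.37). The 2 lower calls, Col17a1 of hemidesmosomes and Col4a6 of epithelial basement membrane (adjusted p = 0.0375 and 0.0498), were each lost without any 1 of carcinosarcomas 64, 567 and 897 (0.134, 0.071 and 0.104, and 0.134, 0.0927 and 0.145) or glands 417_3 and 517_3 (0.0648 and 0.0771, and 0.0765 and 0.103).

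Most genes that cut, link and hydroxylate matrix rose, with 21 of 30 tested called higher and 1 lower (median 2.46). Timp1, an inhibitor of metalloproteinases, stood at 1684, 647 and 674 TPM against 7.18, 17.1, 17.4 and 22.3 TPM (5.83 ± 0.46, adjusted p = 0.000641). Mmp13, an interstitial collagenase, stood at 71.2, 895 and 667 TPM against 1.8, 1.45, 4.63 and 4.87 TPM (6.50 ± 0.84, adjusted p = 0.00232). The protease Mmp10, on the same chromosome 9, stood at 13.5, 40.4 and 192 TPM and at most 0.28 TPM in a gland (adjusted p = 0.00302). The collagen hydroxylases P4ha1 and Plod2 rose in all 3 tumors alike. P4ha1 stood at 117, 91.6 and 152 TPM against 12.3, 14.8, 19.9 and 17.8 TPM (2.81 ± 0.27, adjusted p = 0.00115), and Plod2 at 52.6, 44.5 and 77 TPM against 6.21, 6.71, 10.2 and 7.37 TPM. The lower call was Timp4, an inhibitor abundant in fat, at 0.05, 0.23 and 0.27 TPM against 67.5, 137, 10.1 and 7.99 TPM (-4.72 ± 0.93, adjusted p = 0.0109). Plaur, the urokinase receptor, was not called, at 82.9, 138 and 69.3 TPM against 4.77, 5.28, 61.6 and 60.8 TPM (adjusted p = 0.117), with glands 417_3 and 517_3 near the tumor values. The lower count was 2 without carcinosarcoma 567 or gland 133.

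Most mitosis genes rose, with 20 of 25 tested called higher, 0 lower and a median of 2.42. Birc5, survivin of the mitotic spindle, stood at 160, 106 and 106 TPM against 9.22, 6.47, 13.8 and 15.8 TPM (3.39 ± 0.34, adjusted p = 0.00115). Ube2c, the ubiquitin-conjugating enzyme of the anaphase-promoting complex, stood at 156, 144 and 113 TPM against 13, 12, 19.2 and 21.8 TPM (3.01 ± 0.28, adjusted p = 0.000979). Cenpa, the centromeric histone, and Aurka, a spindle kinase, were called as well (2.86 ± 0.29 and 2.60 ± 0.40). Mki67, the proliferation antigen Ki-67, was not called, at 17, 11.1 and 13.9 TPM against 3.81, 1.64, 19.4 and 9.66 TPM (adjusted p = 0.286), and gland 417_3 exceeded all 3 tumors. The count of 20 was 11 without carcinosarcoma 64 and 9 with the adipocyte list as a covariate (median 1.22).

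DNA replication genes showed smaller differences, with 12 of 25 tested called higher, 0 lower and a median of 1.41. Tk1, thymidine kinase, stood at 83.5, 66 and 69.1 TPM against 10, 9.34, 23.9 and 21.2 TPM (2.21 ± 0.37, adjusted p = 0.00615), and Cdc45 of the replicative helicase at 23.9, 27.9 and 22.8 TPM against 3.3, 2.16, 6.49 and 6.07 TPM (2.32 ± 0.36, adjusted p = 0.00484). The helicase subunits Mcm5, Mcm6 and Mcm7 and the clamp Pcna were not called. Pcna stood at 216, 179 and 199 TPM against 57.7, 56, 209 and 201 TPM, so that the tumors equalled glands 417_3 and 517_3 and exceeded glands 133 and 392. Against glands 133 and 392 alone 24 members were called higher. The count was 3 without carcinosarcoma 64, 5 without 897, 6 without 567, 8 without gland 133 and 3 with the adipocyte covariate.

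Among CDK inhibitors and genes of the Rb and p53 pathways, most did not pass: 4 of 26 were called higher and 2 lower (median -0.43). Cdkn2a, which encodes the cell cycle inhibitors p16Ink4a and p19Arf, had the largest rise of the named genes. It stood at 780, 887 and 1074 TPM against 2.49, 16.5, 3 and 3.41 TPM (7.31 ± 0.54, adjusted p = 0.000538). Cdkn2b, which encodes p15Ink4b, stood at 85, 86.5 and 83.9 TPM against 9.44, 7.9, 2.47 and 2.03 TPM (3.95 ± 0.47, adjusted p = 0.00195), with nearly equal values in the 3 tumors. Rb1, the retinoblastoma gene, stood at 10, 10.7 and 7.19 TPM against 34.2, 41.4, 72.4 and 49.2 TPM (-2.25 ± 0.31, adjusted p = 0.0029). Trp53 stood at 26.5, 33.5 and 11.3 TPM against 35, 32.8, 109 and 107 TPM and did not pass (adjusted p = 0.1). Cdk4, the kinase inhibited by Ink4 proteins, was called higher (1.54 ± 0.37, adjusted p = 0.0225), a call lost without carcinosarcoma 64 (0.0652), 567 (0.0558) or 897 (0.0758). The higher count was 2 without carcinosarcoma 64 or 567, and the lower count 1 without 64, 567 or gland 517_3 and 4 without gland 133. The list gave 4 higher and 7 lower (median -0.24) with the adipocyte covariate, 4 higher and 7 lower (median -0.36) without glands 133 and 392 and 5 higher and 5 lower (median -0.25) without glands 417_3 and 517_3.

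Neighbours of Cdkn2a on chromosome 4 were read in map order, a window of 2 Mb on either side chosen after values were seen. Of 11 genes tested there, 5 were called higher and 0 lower. They lie in a row from Wincr1 (start 89050308), a long noncoding RNA, through Gm12602, Mtap (89137122), an enzyme of methionine salvage, and Cdkn2a (89274471) to Cdkn2b (89306299), with Gm12606 between them not called. Wincr1 stood at 45, 38.9 and 50.3 TPM and at 0.16, 0.34, 0 and 0.06 TPM in the glands (5.33 ± 0.26, adjusted p = 0.000204). Mtap stood at 82, 69.4 and 60.2 TPM against 15.1, 12.8, 11.8 and 11 TPM (2.39, adjusted p = 0.00115). Proximal to this row, Mllt3, Focad, Hacd4, Mrpl48-ps and Klhl9 were not called, with fold changes from -0.23 to 1.16. All 3 tumors shared the pattern.

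Met, the receptor of hepatocyte growth factor, stood at 227, 777 and 792 TPM in carcinosarcomas 64, 567 and 897 and at 20.9, 21.2, 42.4 and 29.7 TPM in the glands (4.20 ± 0.48, adjusted p = 0.00173; exact permutation p = 0.0571, two-sided, the smallest that 3 against 4 samples allow). Tumor 64 had less than the other tumors and still more than any gland. Of 19 genes tested within 2 Mb of Met on chromosome 6, 10 were called higher and 0 lower. Tes had the largest fold change there (5.74, adjusted p = 0.00232). In order of start, Cav2 (3.03), Cav1 (2.78), Met, Capza2 and St7 were called without a break. Capza2, an actin capping subunit, stood at 1877, 3771 and 4280 TPM against 70, 88.3, 109 and 105 TPM (5.07, adjusted p = 0.000404). Lsm8, an RNA-binding subunit, stood at 2206, 213 and 4058 TPM against 37.2, 46.3, 53.4 and 56.1 TPM (4.67, adjusted p = 0.00924), with tumor 567 lowest. Between Capza2 and Lsm8, St7 was called higher (4.31, adjusted p = 0.00138), whereas Wnt2 and Cttnbp2 were not called (1.81 and -1.15, adjusted p = 0.0896 and 0.0696).

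**Figure D5:**
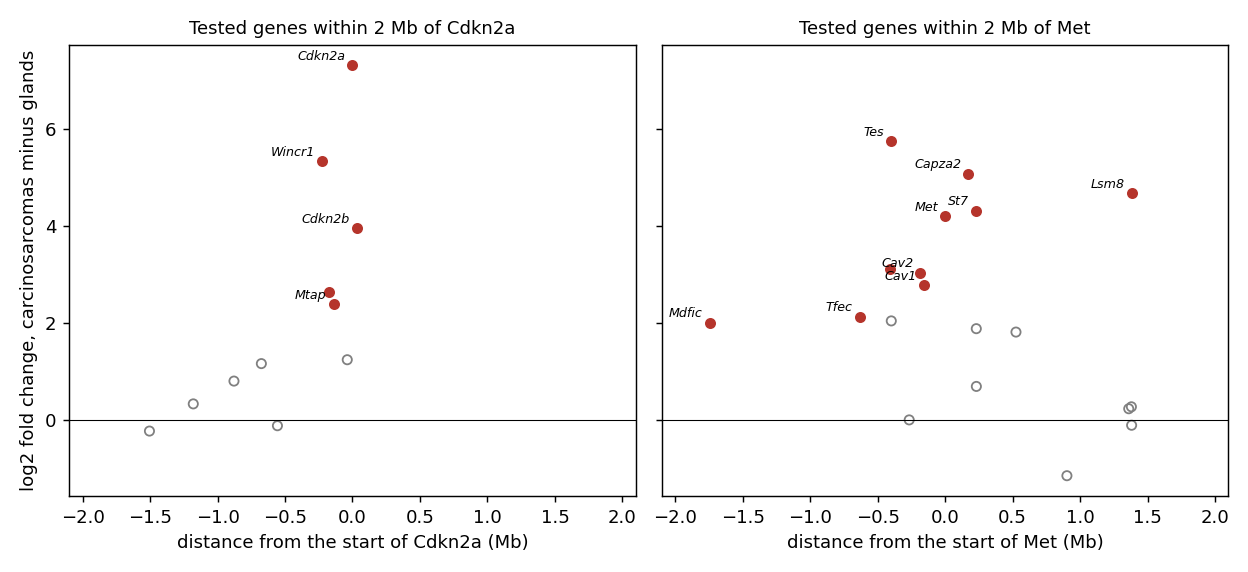
Log2 fold change of the genes tested within 2 Mb of Cdkn2a and of Met, against the distance of their start from the start of the named gene in Mb, with filled points called higher and open points not called. The called genes around Cdkn2a form a short row broken by Gm12606. Around Met, the genes Cav2, Cav1, Met, Capza2 and St7 are called without a break in order of start. Further out around Met lie both called and uncalled genes, and the outermost on each side, Mdfic (2.00) and Lsm8 (4.67), were called higher. Around Cdkn2a, no tested gene lies beyond Cdkn2b, and genes that were not called lie further out on the other side only.

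The list of 26 PI3K, AKT and mTOR genes, which includes Met, gave 2 higher and 1 lower call, with a median of 0.06. The lower count was 2 without gland 392. The list gave 2 higher and 5 lower (median -0.33) with the adipocyte covariate, 3 higher and 4 lower (median -0.32) without glands 133 and 392 and 5 higher and 3 lower (median 0.30) without glands 417_3 and 517_3. Pik3r1, a regulatory subunit of PI3K, stood at 7.14, 10.8 and 5.75 TPM against 54.1, 72.2, 159 and 112 TPM (-3.42 ± 0.40, adjusted p = 0.00182). Its relative Pik3r2 rose slightly (93.4, 62.2 and 46.8 TPM against 22.3, 32.6, 32.4 and 25.9 TPM, adjusted p = 0.025), a call lost without carcinosarcoma 64 (0.102), 567 (0.0714) or gland 517_3 (0.0598). Akt1 (0.71, adjusted p = 0.179) and Mtor (0.10, adjusted p = 0.876) were not called. Among 29 receptor tyrosine kinases and ligands, 5 were called higher and 6 lower, including Erbb3, Kit and Fgfr2, receptors of epithelial cells, among the lower ones. Fgfr2 stood at 1.54, 4 and 0.89 TPM against 19.1, 35.6, 68.9 and 55.1 TPM (-3.84 ± 0.51, adjusted p = 0.00252). The EGF family ligand Ereg stood at 25.2, 5.39 and 25.9 TPM and at 0.14 to 0.9 TPM in the glands (3.47 ± 0.52, adjusted p = 0.00417). The higher count was 1 without carcinosarcoma 567, 2 without 64 or 897 and 3 without gland 133 or 517_3. The list gave 4 higher and 14 lower (median -1.11) with the adipocyte covariate and 3 higher and 14 lower (median -1.07) without glands 133 and 392.

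Oncofetal genes gave 3 higher and 2 lower calls among 9 tested (median -0.07), and 5 of the 14 listed were below the filter of 1 TPM in 3 libraries. The lower count was 1 without carcinosarcoma 64 or 897. Hmga2, a chromatin architectural protein of embryonic tissue, stood at 49.5, 44.9 and 80.5 TPM and at 0.8, 0.4, 0.09 and 0.12 TPM in the glands (5.44 ± 0.33, adjusted p = 0.000327). Its relative Hmga1 stood at 365, 649 and 400 TPM against 14.4, 22.3, 43.3 and 35.7 TPM (4.05 ± 0.40, adjusted p = 0.00115). Igf2bp2, an RNA-binding protein, stood at 27.9, 19.9 and 35.4 TPM against 2.96, 2.24, 1.4 and 1.57 TPM (3.23 ± 0.32, adjusted p = 0.00115). The growth factor Igf2 was split within the tumors, with 247 TPM in 567 and 0.36 and 0.49 TPM in 64 and 897, against 7.68 to 26.2 TPM in the glands (adjusted p = 0.675).

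Glycolysis genes divided by enzyme. Of 21 tested, 8 were called higher and 2 lower, with a median of 1.10. Pgk1, phosphoglycerate kinase, stood at 1303, 805 and 1445 TPM against 147, 139, 127 and 135 TPM (3.06 ± 0.26, adjusted p = 0.000828). Pkm, pyruvate kinase, stood at 1506, 1497 and 2033 TPM against 227, 172, 299 and 279 TPM (2.79 ± 0.28, adjusted p = 0.00115). Slc16a3, a lactate exporter, stood at 73.9, 110 and 160 TPM against 1.13, 4.78, 6.31 and 6.48 TPM (4.43 ± 0.50, adjusted p = 0.00162). The lower calls were Pfkfb3, which makes the activator of phosphofructokinase, and the aldolase Aldoc. Pfkfb3 stood at 6.55, 11.4 and 13.3 TPM against 84.6, 86, 114 and 72.3 TPM (-3.01 ± 0.30, adjusted p = 0.00115). The glucose transporter Slc2a1 did not pass (adjusted p = 0.142), with glands 417_3 and 517_3 at 87.4 and 79.9 TPM against 77.9, 95.3 and 178 TPM in the tumors.

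Of 23 genes of oxidative phosphorylation and the citric acid cycle, 0 were called higher and 2 lower (median -0.33), by limma, and 7 had all tumors below all glands. That order held for 21.6% of all genes tested. The direction depended on the setting: the list gave 5 higher and 0 lower (median 0.53) with the adipocyte covariate, 3 higher and 2 lower (median 0.15) without glands 133 and 392 and 0 higher and 5 lower (median -0.71) without glands 417_3 and 517_3. The lower calls, Sdha of complex II and Uqcrc2 of complex III, were small (-0.94 ± 0.22 and -0.84 ± 0.21, adjusted p = 0.021 and 0.026). Both were lost without carcinosarcoma 64 (0.0879 and 0.0937), 567 (0.05 and 0.0884) or 897 (0.0616 and 0.0571), and Uqcrc2 also without gland 517_3 (0.0585).

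All 24 adipocyte genes were tested, 10 were called lower and 0 higher, and 21 had every tumor below every gland (median -4.30). Pparg, the master factor of fat cells, stood at 1.86, 2.44 and 1.45 TPM against 120, 98, 23.2 and 20.4 TPM (-4.11 ± 0.65, adjusted p = 0.00509). Adipoq, adiponectin, stood at 1.27, 10 and 2.99 TPM against 1718, 1946, 10.2 and 10.8 TPM, which did not pass (adjusted p = 0.111), and the glands differed among themselves by far more than the tumors did. The summed level of the list was 316 to 583 TPM in the tumors and 2479 to 51389 TPM in the glands, and Adipoq was above 0 in every library. With that list as a covariate, 1457 genes were called higher and 3154 lower. The count of 10 was 4 without carcinosarcoma 64, 5 without 897 and 17 without gland 517_3. The list gave 0 higher and 20 lower (median -6.71) without glands 417_3 and 517_3. With the adipocyte covariate it gave 5 higher and 7 lower (median 0.48). That covariate is the mean level of these same 24 genes. It removes their average difference by construction, so this last count does not test the list.

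Most macrophage genes rose, with 17 of 24 tested called higher and 0 lower (median 2.88), and the count was 16 to 20 in the fits without 1 mouse. The summed level of the list was 8278 to 10608 TPM in the tumors and 807 to 1833 TPM in the glands. Msr1, a scavenger receptor, stood at 48.8, 55.9 and 59.9 TPM against 1.64, 2.11, 3.02 and 2.22 TPM (4.12 ± 0.26, adjusted p = 0.000404). Spp1, osteopontin, stood at 2349, 1370 and 1775 TPM against 94.9, 15.6, 34.5 and 45.3 TPM (5.47 ± 0.54, adjusted p = 0.00115). The defining markers Csf1r and Cd68 were called as well (2.51 ± 0.38 and 2.49 ± 0.32). The defining marker Adgre1 stood at 33.2, 24.2 and 31.9 TPM against 5.82, 26.5, 4.19 and 3.84 TPM and was not called (adjusted p = 0.0539), and gland 392 exceeded tumor 567. The neutrophil and monocyte proteins S100a8 and S100a9 rose alike, S100a9 from 3.97, 4.52, 2.26 and 3.81 TPM in the glands to 142, 105 and 145 TPM (4.84 ± 0.28, adjusted p = 0.000327).

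Lymphocyte genes did not follow the macrophage genes: of 22 tested, 0 were called higher and 2 lower (median -0.72). Cd8a, a marker of cytotoxic T cells, stood at 1.87, 0.92 and 1.87 TPM against 4.83, 2.61, 7.81 and 6.76 TPM (-1.29 ± 0.37, adjusted p = 0.0404). Its call was lost in each fit without 1 mouse except the one without gland 392, with adjusted p from 0.0633 without gland 133 to 0.131 without carcinosarcoma 567. The granzyme gene Gzma was lower (-2.35 ± 0.56, adjusted p = 0.0219), a call lost without carcinosarcoma 64 (0.064) or 897 (0.0741). Without gland 133 the list gave 4 lower calls. The list gave 1 higher and 5 lower (median -0.85) with the adipocyte covariate, 0 higher and 8 lower (median -1.06) without glands 133 and 392 and 0 higher and 7 lower (median -0.79) with array weights. Cd3g of the T cell receptor complex stood at 7.16, 5.63 and 6.77 TPM against 9.71, 12.6, 10.8 and 10.2 TPM without passing (adjusted p = 0.0932). Defining T cell markers were above 0 in all libraries, and the list summed to 49.9 to 91.8 TPM in the tumors and 92.3 to 178 TPM in the glands.

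Of 30 chemokines and cytokines, 6 were called higher and 0 lower (median 0.50). Ccl12, a monocyte chemoattractant, stood at 221, 76.8 and 79.6 TPM against 5.82, 15.2, 4.28 and 4.65 TPM (3.88 ± 0.52, adjusted p = 0.00257). Cxcl5, a neutrophil chemoattractant, stood at 11, 22.3 and 73.2 TPM against 0.35, 0.48, 0.46 and 1.08 TPM (4.13 ± 0.57, adjusted p = 0.0029). For many others the glands bracketed the tumors: Cxcl1 stood at 15.5, 22.3 and 22 TPM in tumors, at 4.51 and 5.89 TPM in glands 133 and 392 and at 418 and 410 TPM in glands 417_3 and 517_3. The list gave 15 higher and 0 lower (median 1.75) without glands 417_3 and 517_3, 7 higher and 11 lower (median -0.03) without glands 133 and 392 and 4 higher and 13 lower (median -0.96) with the adipocyte covariate.

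Interferon-stimulated genes were near the median of all genes (-0.08), with 0 of 22 called higher and 3 lower, a count that was 0 without carcinosarcoma 567 or 897 and 1 without 64, 392, 417_3 or 517_3. Over all genes tested, 13.1% were called lower. The list gave 0 higher and 5 lower (median 0.02) with the adipocyte covariate, 0 higher and 5 lower (median -0.03) without glands 133 and 392 and 0 higher and 1 lower (median -0.05) without glands 417_3 and 517_3. Of 19 MHC and antigen presentation genes, 1 was called higher and 7 lower (median -0.71). Nlrc5, the activator of MHC class I genes, stood at 9.23, 2.72 and 4.28 TPM against 23.4, 20.1, 26.3 and 16.8 TPM (-1.93 ± 0.38, adjusted p = 0.0108). Vtcn1, the B7 family inhibitor B7-H4, stood at 0.25, 0.67 and 0.08 TPM against 8.19, 5.18, 20 and 15.1 TPM (-3.17 ± 0.45, adjusted p = 0.00331). The class II genes H2-Aa and H2-Ab1 were not called (1.15 and 1.19, adjusted p = 0.0639 and 0.13), with tumor 897 lowest of the tumors at 597 and 388 TPM. Without carcinosarcoma 897 the list gave 5 higher and 2 lower calls, and it gave 2 lower calls without carcinosarcoma 567 or gland 517_3 and 3 without gland 417_3. The higher call was lost in each of the other 6 fits without 1 mouse. The list gave 0 higher and 2 lower (median -0.13) without glands 417_3 and 517_3 and 3 higher and 8 lower (median -0.55) with array weights.

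Endothelial genes gave 5 lower and 0 higher calls among 20 (median -0.71), and the lower count was 7 without carcinosarcoma 567 and 3 without any other 1 of the 7 mice. Cd300lg, a receptor of capillary endothelium, was uniform in the glands at 86.7, 96.5, 86.4 and 80.5 TPM and stood at 2.65, 6.85 and 3.1 TPM in the tumors (-4.17 ± 0.31, adjusted p = 0.000538). Vwf, von Willebrand factor, stood at 5.61, 14.3 and 3.7 TPM against 32.4, 70.2, 60.4 and 74.7 TPM (-2.88 ± 0.46, adjusted p = 0.00516). The general marker Pecam1 was not called, at 43.9, 72.6 and 36.9 TPM against 62.2, 81.1, 132 and 114 TPM (adjusted p = 0.0933). Among 20 angiogenic ligands and hypoxia genes, 3 were called higher and 3 lower (median 0.57). Epas1, which encodes HIF-2 alpha, stood at 8.07, 14.7 and 7.52 TPM against 73.7, 74.3, 116 and 93.8 TPM (-3.06 ± 0.31, adjusted p = 0.00115), whereas the hypoxia-responsive Ankrd37 stood at 24.6, 13 and 17 TPM against 1.29, 2.97, 2 and 1.94 TPM (2.64 ± 0.33, adjusted p = 0.0021). Vegfa was not called (-0.22 ± 0.33, adjusted p = 0.672). The higher count was 1 without carcinosarcoma 567, and the lower count 1 without carcinosarcoma 64. The list gave 9 higher and 4 lower (median 0.98) without glands 417_3 and 517_3 and 3 higher and 4 lower (median -0.30) with the adipocyte covariate.

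Schwann cell and nerve genes gave 8 lower and 1 higher call among 15 (median -1.60). Sox10, a neural crest factor that mammary epithelium also expresses, stood at 0.43, 3.3 and 0.83 TPM against 38.5, 36.7, 139 and 124 TPM (-4.99 ± 0.61, adjusted p = 0.00206). Calca, which encodes calcitonin and the neuropeptide CGRP, stood at 2.11, 0.51 and 0.31 TPM against 138, 146, 441 and 532 TPM (-7.17 ± 0.57, adjusted p = 0.000641). The higher call was Gap43, a growth cone protein, at 24.8, 42.9 and 76.3 TPM against 1.49, 0.52, 0.18 and 0.1 TPM (4.90 ± 0.46, adjusted p = 0.00095). Skeletal muscle genes gave 0 calls among 16 by limma, and their summed level varied with the sample, at 70.1, 1500 and 171 TPM in carcinosarcomas 64, 567 and 897 and 638, 3424, 20.8 and 20.1 TPM in glands 133, 392, 417_3 and 517_3. Acta1, skeletal actin, stood at 413 TPM in tumor 567 and 421 TPM in gland 392. The list gave 11 higher and 0 lower (median 4.11) with the adipocyte covariate, 4 higher and 0 lower (median 3.15) without glands 133 and 392 and 0 higher and 0 lower (median -2.12) without glands 417_3 and 517_3.

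Signalling lists were mixed. Among 28 TGF-beta and BMP genes, 4 were called higher and 4 lower (median 0.13). The shares over all genes tested were 9.83% higher and 13.1% lower. Inhba, the activin A subunit, stood at 55.7, 51.5 and 15.8 TPM against 2.03, 0.85, 1.42 and 1.51 TPM (3.93 ± 0.46, adjusted p = 0.0018). Ltbp1, which anchors latent TGF-beta, stood at 76.8, 74.3 and 52.8 TPM against 9.13, 11.1, 22.8 and 17.2 TPM (2.16 ± 0.35, adjusted p = 0.00509). Tgfb1 itself lay above every gland without passing (119, 151 and 46.2 TPM against 25.8 to 45.5 TPM, adjusted p = 0.0554). The 4 lower calls fell to 0 without carcinosarcoma 64 and to 1 without 567, 897, 417_3 or 517_3 and to 2 without 392. The list gave 4 higher and 9 lower (median -0.81) with the adipocyte covariate, 4 higher and 11 lower (median -0.42) without glands 133 and 392 and 8 higher and 2 lower (median 0.83) without glands 417_3 and 517_3. Among 28 Wnt and Hedgehog genes, 5 were called higher and 5 lower (median 0.35). Wnt7b stood at 42.8, 100 and 70.3 TPM against 2.85, 6.02, 10.9 and 9.39 TPM (3.16 ± 0.46, adjusted p = 0.00357), and the Wnt receptor Fzd2 at 16, 26.4 and 23.3 TPM against 3.26, 5.06, 4.25 and 3.83 TPM (2.15 ± 0.29, adjusted p = 0.00256). The ligand Wnt5b moved the other way, from 24.1, 21.1, 101 and 102 TPM in the glands to 1.57, 3.07 and 2.11 TPM (-3.94 ± 0.62, adjusted p = 0.00488). The lower count was 1 without carcinosarcoma 64, and the higher count 3 without any 1 of 64, 567, 897, 133 and 517_3. The list gave 3 higher and 7 lower (median -0.48) with the adipocyte covariate and 6 higher and 3 lower (median 0.73) without glands 417_3 and 517_3.

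The TIF1 relatives of Trim24 were not called either. Trim28, a corepressor of retroelements, stood at 208, 158 and 160 TPM against 89, 104, 167 and 166 TPM (0.46 ± 0.30, adjusted p = 0.299), and Trim66 was below the filter. Among the 18 TIF1 and retinoid genes tested, 3 were called higher and 4 lower (median 0.38). Crabp1, a binding protein of retinoic acid, stood at 186, 573 and 137 TPM against 6.51, 14.5, 9.36 and 12.5 TPM (4.44 ± 0.50, adjusted p = 0.00164). Aldh1a1, a retinoic acid synthesizing enzyme, stood at 0.33, 1.38 and 0.25 TPM against 54.7, 55.2, 6.29 and 5.47 TPM (-3.63 ± 0.87, adjusted p = 0.0215), a call lost without carcinosarcoma 64 (0.0828), 567 (0.0508) or 897 (0.0714). The lower count was 0 without carcinosarcoma 64 and 2 without 567 or 897, and the higher count 1 without 567. The list gave 3 higher and 2 lower (median -0.19) with the adipocyte covariate and 5 higher and 4 lower (median 0.66) without glands 417_3 and 517_3. Of 22 cartilage and bone genes, 13 were below the filter, among them Col2a1, Col10a1 and Matn1. Of the 9 tested, 2 were called higher and 3 lower (median -0.98). Acan, the cartilage proteoglycan aggrecan, stood at 16.3, 1.73 and 2.45 TPM and at most 0.12 TPM in a gland (2.38 ± 0.59, adjusted p = 0.0244), with tumor 64 highest. Alpl, an alkaline phosphatase, stood at 0.55, 1.07 and 0.09 TPM against 10, 21.3, 123 and 116 TPM (-4.84 ± 0.86, adjusted p = 0.00748). The lower count was 1 without carcinosarcoma 64 or 567, and the higher count 1 without 64, 567 or 897. The list gave 2 higher and 2 lower (median 0.64) without glands 417_3 and 517_3 and 1 higher and 4 lower (median -0.94) with the adipocyte covariate.

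Of the 19 genes that the study names, which it chose with these samples in view, 6 were called higher and 8 lower. Galectin-1, Lgals1, stood at 4017, 3890 and 7546 TPM against 1154, 1489, 114 and 149 TPM (3.56 ± 0.94, adjusted p = 0.0307). Its call was lost without 64 (0.0888), 567 (0.0757), 897 (0.0989), 417_3 (0.0539) or 517_3 (0.0621). The cytokine Mif stood at 1654, 932 and 1543 TPM against 186, 255, 555 and 665 TPM (1.87 ± 0.49, adjusted p = 0.0291), with the call lost without 64 (0.112), 567 (0.0512), 897 (0.0885) or 392 (0.0582). Sncg, gamma-synuclein, stood at 4.26, 22.5 and 3.83 TPM against 1253, 1340, 89.2 and 108 TPM (-5.41 ± 1.12, adjusted p = 0.0132), lost without 64 (0.0616) or 897 (0.0514). Ltk, a receptor tyrosine kinase, stood at 0.08, 0.05 and 0.08 TPM against 1.67, 1.95, 5.59 and 4.81 TPM (-1.96 ± 0.37, adjusted p = 0.00967), and Syt9, a synaptotagmin, was lower too (-2.23 ± 0.53, adjusted p = 0.0211). The call of Syt9 was lost without 64 (0.0832), 567 (0.0524) or 897 (0.0683). Without carcinosarcoma 64 the list gave 4 higher and 3 lower calls, and without 897 4 higher and 4 lower. The list gave 7 higher and 3 lower (median 0.54) without glands 417_3 and 517_3.

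Several of the largest changes fell outside the lists. Fcgbp, a mucin-like protein that binds IgG, stood at 3.88, 6.81 and 5.62 TPM against 519, 994, 1432 and 1893 TPM, the largest fall of the named genes (-7.43 ± 0.44, adjusted p = 0.000327). Atp6v1b1, a proton pump subunit of specialised epithelia, stood at 0.21, 2.12 and 0.73 TPM against 74.2, 134, 292 and 266 TPM (-6.49 ± 0.54, adjusted p = 0.000763). Cd36, the fatty acid transporter of fat, endothelium and secretory cells, stood at 4.6, 20.3 and 8.13 TPM against 840, 756, 510 and 408 TPM (-5.88 ± 0.47, adjusted p = 0.000641). For each of these genes all 4 glands, rich in adipocyte RNA or not, lay far above all 3 tumors. Upward, Ankrd1, a target of YAP in many cells, stood at 146, 443 and 83.6 TPM against 1.42, 1.63, 2.26 and 2.34 TPM (5.94 ± 0.52, adjusted p = 0.000828). Steap1, a metalloreductase, stood at 41.4, 39.9 and 63 TPM against 0.61, 0.79, 1.13 and 0.93 TPM (4.70 ± 0.28, adjusted p = 0.000327). Prl2c3, of the proliferin family, was high in tumors 567 and 897 (578 and 671 TPM) but 5.47 TPM in tumor 64, against 0.52 to 2.82 TPM in the glands (adjusted p = 0.025). Its call was lost without 567 (0.0883) or 897 (0.0855), and reads of such near-identical copies may be shared among them.

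Few genes were silent in one group and expressed in the other. Of all 51826 annotated genes, tested or not, 10 were at or under 0.1 TPM in every gland and at least 1 TPM in every carcinosarcoma. The reverse held for 30 genes. None of either kind reached 10 TPM throughout the other group. The genes named here were picked for this separation and reached the filter, where they did, only through the group with the high values. A p-value would not support the separation, and none is given. Adamts16, a matrix protease, stood at 3.19, 4.26 and 1.83 TPM in the tumors and up to 0.1 TPM in the glands. In the reverse direction, Abcc8, a subunit of potassium channels, stood at 0.09, 0.09 and 0.07 TPM against 6.53, 5.41, 6.58 and 4.93 TPM (-2.66 ± 0.24). Rhbg, an ammonium transporter, stood at 0, 0.03 and 0.01 TPM against 2.91, 2.88, 8.04 and 6.83 TPM. The chloride channel gene Cftr, below the filter, stood at 50.6 TPM in tumor 567, 2.32 TPM in 897 and 0.76 TPM in 64, and at most 0.1 TPM in a gland.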

How the data were processed

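RNA of whole tumors and glands was sequenced. The deposited table holds TPM per gene, which the authors made with RSEM, aligning with STAR to GRCm38 and GENCODE genes after trimming with Trimmomatic; the labels also list TopHat and Cufflinks, and labels and methods name different library kits, so strandedness is unsettled. No read counts were used here and depth is unknown. The 7 libraries were compared with limma 3.58.1 (R 4.3.3) on log2(TPM + 1), with a variance trend, for genes at 1 TPM in at least 3 libraries, adjusting p-values by Benjamini-Hochberg; genes under 0.05 were called. Fold changes on this scale understate the change of low genes. Only the limma fit was tested on simulated data, with known changes added to some genes. Coordinates are GENCODE M21 (GRCm38).

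The members and the 32 gene lists were chosen with earlier results of these data known. Genes were named by rule: the 12 largest non-overlapping changes in each direction, up to 4 called genes per direction and 4 not called per list, the genes the study names, the 6 smallest adjusted p in each direction that held in all fits, the 6 clearest on and off genes, and cell type markers. Chosen after their values were seen were Esrp1, Cldn4, Cldn7, Snai1, Twist1, Zeb1, Snai2, Cdh2, Grhl2, Ovol2, Wnt2, Vegfa, Trim66, Col2a1, Col10a1 and Matn1, and the neighbours of Cdkn2a and Met. Fits without a mouse kept the filter of 3 libraries; a filter of 2 was added after those counts were seen. So were the fits without a pair of glands and with glands 417_3 and 517_3 averaged. Some items are not reported here.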

Additional observations from a re-analysis of the deposited data

Results flagged for a closer look

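Among the 155 genes whose values are given, 6 had 1 of the 4 control glands far from the other glands by Dixon's criterion, where chance flags about 1 in 20 groups. Gland 392 stood apart for Cdkn2a at 16.5 TPM, Csn2 at 30.3 TPM, Csf1r at 33.1 TPM and Cd68 at 31.8 TPM. Gland 133 stood apart for Fn1 at 17.1 TPM and Trim66 at 0.58 TPM. For Cdkn2a, Fn1, Csf1r and Cd68 every carcinosarcoma still lay above the gland that stood apart.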

How the results depend on the processing

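Of 670 members tested, 299 were called, and 0 of these changed direction under any setting run. The 3511 calls became 1623 with no filter on low values and ranged from 1370 to 3093 when 1 mouse was left out, the lowest counts being 1370, 1833 and 2237 without carcinosarcoma 64, 567 and 897. With a filter of 2 libraries, added after the data were seen, these were 1345, 1793 and 2185, and 5837 without glands 133 and 392 (5048 without 417_3 and 517_3). Calls of at least 5-fold, 920, became 1699 with a pseudocount of 0.1 TPM, 1820 with the adipocyte covariate and 1455 without glands 133 and 392 at that added filter, and ranged from 676 to 1016 without 1 mouse. Of the calls 42.8% were higher, against 56.1% with quantile normalization, 31.6% with the covariate (median of all genes -0.32), 56.9% without glands 417_3 and 517_3 (median 0.12), and at the added filter 53.4% without 897 and 32.4% without 133 and 392. With 417_3 and 517_3 averaged, 2615 genes were called. With no filter on low values the calls of several lists fell as well, to 7 higher mesenchymal genes from 12, 4 higher replication genes from 12, 4 lower adipocyte genes from 10 and 2 lower MHC genes from 7. Milk and adipocyte lists changed places as the list with the lowest median: -4.57 and -4.30 as reported, -5.01 and -5.30 with a pseudocount of 0.1 TPM. The cause of these shifts was not tested. Foxf2, Hmga2, Mmp10, Wincr1, Ereg, Acan and Adamts16 did not reach the filter of 3 libraries without a carcinosarcoma and were tested in 4 of the 7 fits. No gland reached 1 TPM for these genes, so they entered the test only through the 3 carcinosarcomas. No paired analysis was possible because the groups share no replicate numbers. Depth is unknown, so differences among genes near 0 TPM have no counting error.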
